A study of Mus musculus with 15 samples.

Results

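The genes of oxidative phosphorylation were followed in cultured mouse lung fibroblasts given combinations of IL-33, IL-13 and IL-17A. Members were taken by symbol among protein-coding genes: the mitochondrially encoded mt-Nd, mt-Co, mt-Cytb and mt-Atp genes, and the nuclear genes whose symbols begin with Nduf (a, b, c, s or v), Uqcr, Cox4 to Cox8, Atp5 or are Sdha to Sdhd. The rule used no measured value and gave 105 of the 18078 genes listed, 13 encoded by mitochondrial DNA and 92 by the nucleus. Among the nuclear members 37 belong to complex I, 4 to complex II, 8 to complex III, 17 to complex IV and 17 to complex V. A further 8 are assembly factors of complex I, and Cox5b-ps is listed as protein coding although its symbol marks a pseudogene. Ndufb1-ps, counted in complex I, carries such a symbol too. No protein-coding transcript of it was found, so its copies were not searched for. Of the mitochondrial members 7 belong to complex I, 1 to complex III, 3 to complex IV and 2 to complex V.

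Complexes I and II pass electrons from NADH and succinate to ubiquinone, complex III passes them to cytochrome c, and complex IV passes them to oxygen. Complexes I, III and IV pump protons, and complex V uses the gradient to make ATP. All complexes except complex II combine subunits made from mitochondrial DNA inside the organelle with subunits imported from the cytosol, and several complex IV subunits have tissue-dependent isoforms.

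RNA sequencing covered 15 libraries in 5 groups of 3, all from wild-type BALB/cJ mouse cells labelled as primary lung fibroblasts and taken 20 hours after stimulation. The groups were untreated, IL-33 alone, IL-33 plus IL-17A, IL-33 plus IL-13, and the triple combination of these cytokines. IL-33 is released by injured barrier cells, IL-13 acts in type 2 immunity and IL-17A in type 3 immunity. All 4 stimulated groups received IL-33, so IL-13 and IL-17A were never given without it. The labels name no cultures, animals or batches, so the p-values reflect the spread among libraries alone, and that spread may be technical.

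Values are TPM, a measure of transcript abundance here scaled by gene span, introns included, to a fixed total per library. Estimated reads per library came to between 10554613 and 15123277. All 12 fibroblast markers were above 1 TPM, and their summed share of TPM was 1.55% to 1.70% in untreated libraries and 1.04% to 1.09% with all 3 cytokines. All 14 macrophage markers were present too, led by Lyz2, at a summed 1.83% to 2.09% of TPM, lowest in the groups with IL-13 (1.83% to 1.92%). Transcripts used as markers of both cell types were thus present, and whether a value comes from fewer cells of a type or less RNA per cell cannot be told apart here. The 6 smooth muscle and pericyte markers, led by Cnn1, summed to 921 to 968 TPM in the untreated libraries, 554 to 592 TPM with IL-33, 264 to 289 TPM with IL-33 plus IL-17A, 306 to 315 TPM with IL-33 plus IL-13 and 165 to 174 TPM with all 3 cytokines. All 5 that could be tested fell with IL-33 and again with IL-13 or IL-17A added to it (median log2 changes -0.75, -0.85 and -1.09). The 4 epithelial markers listed summed to between 1.61 and 3.19 TPM in the 9 libraries without IL-13 and between 4.65 and 8.32 TPM in the 6 with it. The 2 that could be tested, Krt18 and Cdh1, rose with IL-13 added to IL-33 (1.25 and 1.01). All these sums moved with the treatments, and their part in the results was not tested.

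For 5 of the 13 mitochondrial genes the level cannot be read safely, because a near-identical copy lies in nuclear DNA. A row of pseudogenes on chromosome 1, on the minus strand of mm10 between bases 24611535 and 24616197, matches mt-Co2, mt-Atp6, mt-Co3, mt-Nd3 and mt-Nd4l at 99% identity or more over at least 90% of the transcript. The pair mt-Co2, a core subunit of complex IV, and Gm28661 (chr1:24614885-24615565) is identical over 681 bases. The pair mt-Nd3, a complex I subunit, and Gm28438 differs at 1 base of 345. The first 120 bases of each are shown 5′ to 3′ from GENCODE vM21 transcripts, with the differing base in capitals, because a short read from them has no mark of its origin elsewhere.
mt-Co2: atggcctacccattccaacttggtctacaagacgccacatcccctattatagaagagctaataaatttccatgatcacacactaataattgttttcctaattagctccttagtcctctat
Gm28661: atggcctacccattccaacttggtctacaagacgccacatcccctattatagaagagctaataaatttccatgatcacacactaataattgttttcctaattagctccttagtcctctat
mt-Nd3: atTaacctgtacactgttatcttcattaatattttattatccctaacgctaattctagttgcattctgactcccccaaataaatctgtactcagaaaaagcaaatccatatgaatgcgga
Gm28438: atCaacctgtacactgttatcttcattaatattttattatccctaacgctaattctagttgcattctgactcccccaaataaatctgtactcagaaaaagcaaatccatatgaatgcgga

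Genes and copies were listed at similar levels. Over the 15 libraries mt-Co2 averaged 191 TPM and its copy 215 TPM, mt-Co3 224 and its copy 244 TPM, and mt-Nd3 24.8 and its copy 24.5 TPM. Of the 8 genes with no such copy over the whole transcript, 7 were far higher, with means from 2843 TPM for mt-Nd4 to 16484 TPM for mt-Co1, and mt-Atp8 averaged 21.0 TPM. How reads matching several places were treated is not given in the sources used here, so low values of these 5 genes are not read as low expression. The annotated copies cover 63.6% of mt-Nd4 and 31.3% of mt-Co1, and none was found for mt-Nd1, mt-Nd2, mt-Nd5, mt-Nd6 or mt-Cytb. mt-Atp8, also with no annotated copy, rested on 1 to 10 reads per library. Copies without annotation were not searched for, so its low value is not read as low expression either.

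Because gene span distorts comparisons between genes, levels were also computed per exon length. On that scale mt-Co1, the catalytic core of complex IV, had the highest median level over the 15 libraries, 5630 TPM. The nuclear members had a median of 111 TPM, from 1.76 TPM for Cox5b-ps to 1078 TPM for Cox6a1, a complex IV subunit. In complex V the beta subunit Atp5b was highest, at 706 TPM. The assembly factors of complex I were the lowest set of nuclear members apart from Cox5b-ps, with a median of 15.1 TPM and a highest value of 40.5 TPM (Ndufaf1), against a median of 90.1 TPM over the complex I subunits.

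**Figure D1:**
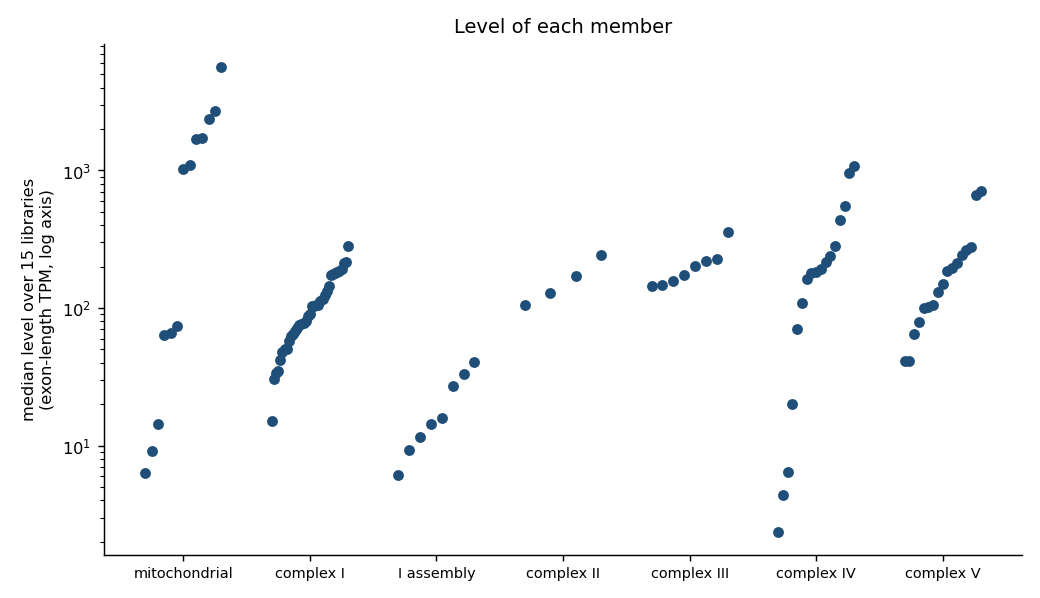
Median level of each member over the 15 libraries, in TPM per exon length on a log axis, by genome and complex; each point is a gene and points are spread sideways in order of level. The 7 mitochondrial genes from 1017 TPM upward include neither mt-Atp8 nor the 5 genes with near-identical nuclear copies, and Cox5b-ps is not drawn.

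A part of the nuclear members varied little between libraries. The highest library stood less than 1.25 times above the lowest in 20 of the 92 nuclear members and in none of the mitochondrial members. Cox6a1 ranged from 646 to 699 TPM over all 15 libraries, Cox4i1, the common form of complex IV subunit 4, from 404 to 442 TPM, and Atp5b from 1194 to 1327 TPM. The ratio passed 2 in 11 nuclear members, among them Atp5k at 3.93, and in 8 of the 13 mitochondrial genes.

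The 13 mitochondrial genes together took 5.77%, 6.13% and 5.84% of TPM in the untreated libraries and 4.77%, 5.40% and 5.45% with IL-33. Within IL-33 plus IL-17A the share was 5.23% in replicate 1 but 3.73% and 3.67% in the other libraries. With IL-33 plus IL-13 all 3 libraries were low, at 3.73%, 3.50% and 3.81%. With all 3 cytokines replicate 1 was low at 3.87%, and the others held 4.99% and 5.003%.

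So 6 libraries lay between 3.50% and 3.87%, and the other 9 between 4.77% and 6.13%, with nothing between. The 6 are all of IL-33 plus IL-13, replicates 2 and 3 of IL-33 plus IL-17A, and triple replicate 1. Nothing in the labels sets them apart, and replicate numbers follow accession order only. The same 6 were low in estimated reads, where the mitochondrial genes took 0.412% to 0.458%, against 0.535% to 0.656% in the other 9. Since all IL-33 plus IL-13 libraries and no IL-33 libraries are among the 6, the addition of IL-13 to IL-33 and whatever sets these libraries apart cannot be told apart in that comparison.

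**Figure D2:**
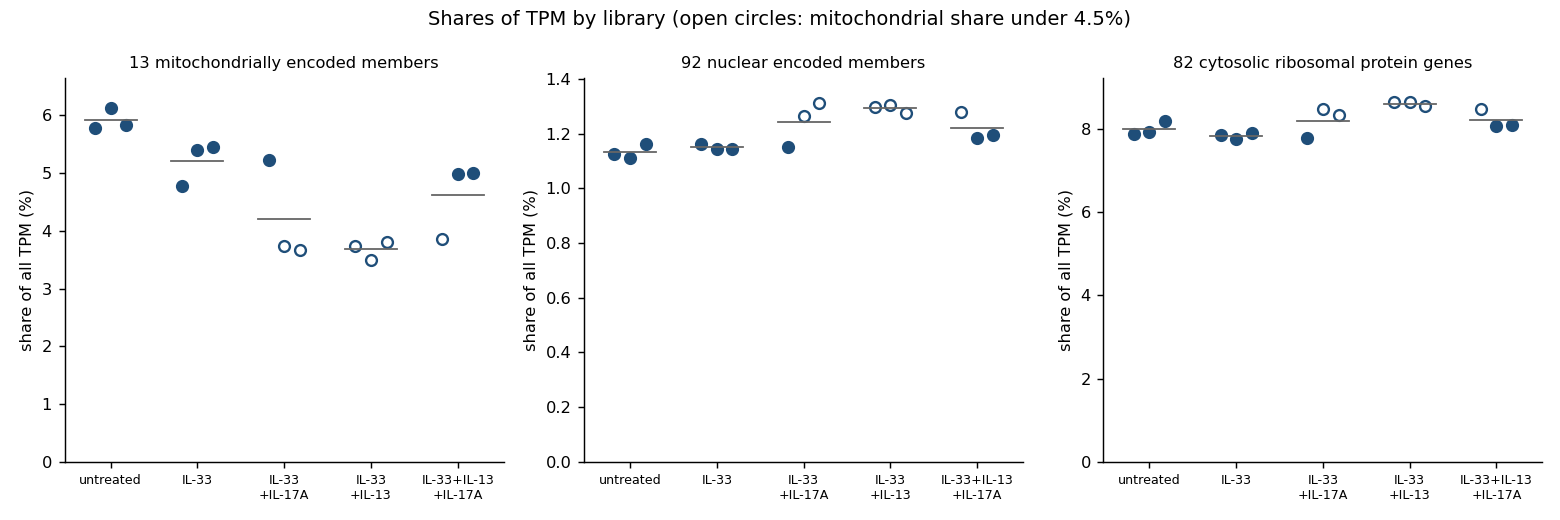
Share of all TPM (%) taken by the mitochondrial members, the nuclear members and the cytosolic ribosomal protein genes; each point is a library, bars are means of the 3 libraries of a group and open circles mark the 6 libraries under 4.5%. Those 6 lie at 3.50% to 3.87% in the left panel and at 1.27% to 1.31% in the middle panel, where the other 9 reach 1.20% at most.

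Gene by gene the mitochondrial core subunits of complex I followed that split. mt-Nd1, which helps form the ubiquinone site, stood at 9515, 10064 and 9106 TPM in the untreated libraries, 8064, 9047 and 8547 TPM with IL-33, 8402, 6356 and 6440 TPM with IL-33 plus IL-17A, 6377, 6025 and 6595 TPM with IL-33 plus IL-13 and 6870, 8189 and 8140 TPM with all 3 cytokines. mt-Nd5, a proton-pumping subunit, stood at 5758, 6209 and 6297 TPM in the untreated libraries, 4580, 5280 and 5708 TPM with IL-33, 5447, 3306 and 3401 TPM with IL-33 plus IL-17A, 3260, 3088 and 3312 TPM with IL-33 plus IL-13 and 3466, 5037 and 5190 TPM with all 3 cytokines. In both genes every one of the 6 libraries was below every one of the other 9, and replicate 1 of IL-33 plus IL-17A sat with the IL-33 libraries. mt-Nd2, mt-Nd4 and mt-Nd6 had the same arrangement, with 3174 to 3540 TPM in the 6 libraries and 4638 to 6660 TPM in the others for mt-Nd2.

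In complexes III and IV, mt-Cytb, the cytochrome b of complex III, ranged from 5566 to 6232 TPM in the 6 libraries and from 7094 to 8936 TPM in the others. mt-Co1 stood at 20275, 21156 and 19946 TPM in the untreated libraries, 17030, 18730 and 18561 TPM with IL-33, 17534, 13769 and 12625 TPM with IL-33 plus IL-17A, 13675, 12859 and 13586 TPM with IL-33 plus IL-13 and 13821, 16831 and 16871 TPM with all 3 cytokines. The ratio of mt-Co1 to mt-Nd1 TPM stayed between 1.96 and 2.19 in every library, so these 2 genes were low in proportion. Others were not: the ratio of mt-Nd2 to mt-Nd1 was 0.515 to 0.539 in the 6 libraries and 0.575 to 0.719 in the others, and that of mt-Cytb to mt-Nd5 was 1.72 to 1.88 and 1.20 to 1.60. mt-Co2 also split without overlap, at 116 to 160 TPM against 177 to 283 TPM, while mt-Co3, mt-Atp6, mt-Nd3, mt-Nd4l and mt-Atp8 overlapped. As the 6 libraries were picked by the sum of these genes, the split is a description of them and is not tested.

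**Figure D3:**
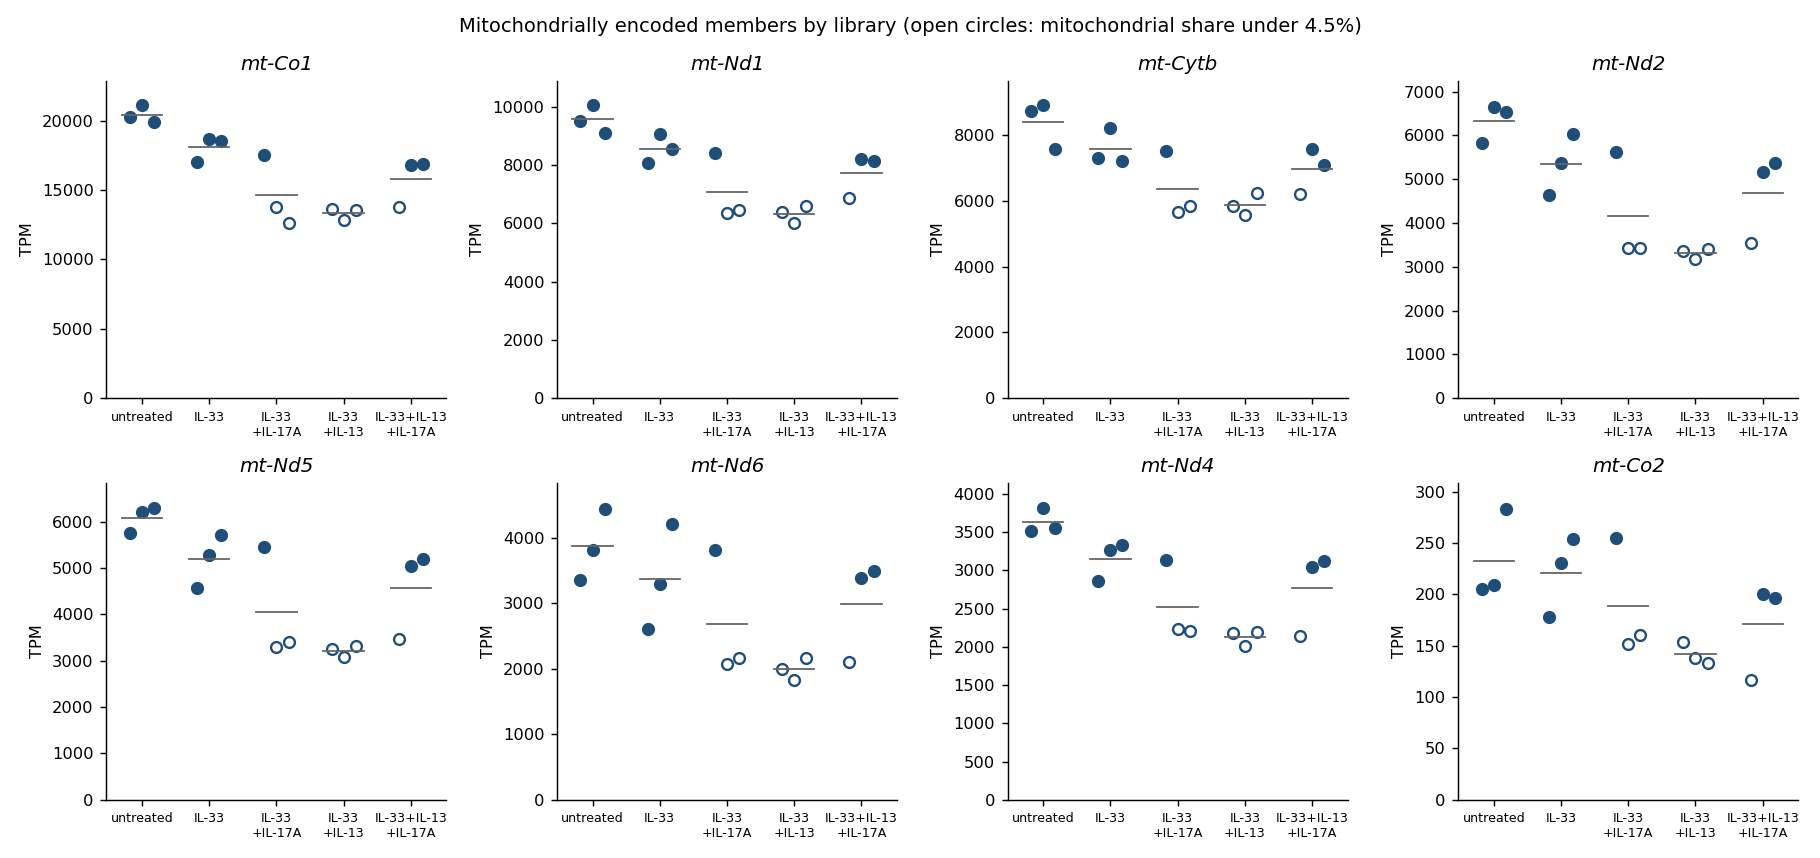
TPM of 8 mitochondrially encoded members by library, 3 points per group with the group mean as a bar and axes from 0; open circles mark the 6 libraries. In each panel the open circles lie below all filled ones, for instance at 12625 to 13821 TPM against 16831 to 21156 TPM for mt-Co1.

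The first comparison asked what IL-33 alone did. None of the 13 mitochondrial genes passed the test (limma on log2(TPM + 1), called at a Benjamini-Hochberg adjusted p under 0.05 over 13887 genes). None had an unadjusted p under 0.05 either, where 3665 of the 13887 genes did, and 0 were called on estimated reads. The median log2 change of the 13 was -0.18, against -0.05 over all genes tested. Without the 6 libraries, none of them untreated or given IL-33 alone, mt-Co1 changed by -0.18 ± 0.04 (SE). The 6 were picked by the sum of the mitochondrial genes. Leaving them out narrows the spread that the test uses, so no call of a mitochondrial gene is read from that fit. Among 91 nuclear members tested 1 rose and 1 fell, and 14.2% of all genes were called, 5.92% higher and 8.28% lower (822 and 1150 genes, or 1083 and 878 after scaling by median ratios). Without IL-33 replicate 3 the nuclear count was 4. Both are complex IV isoforms. Cox4i2, the form of subunit 4 known for its expression in lung, stood at 4.20, 4.49 and 3.62 TPM in the untreated libraries and 6.25, 5.89 and 5.39 TPM with IL-33. The groups did not overlap, and the limma change was 0.43 ± 0.09 (SE), adjusted p = 0.007.

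Cox6a2, the form of subunit 6a known from heart and skeletal muscle, stood at 13.5, 11.9 and 12.3 TPM in the untreated libraries, 5.40, 3.31 and 6.36 TPM with IL-33, 5.11, 6.51 and 7.66 TPM with IL-33 plus IL-17A, 2.71, 4.47 and 3.71 TPM with IL-33 plus IL-13 and 1.92, 2.001 and 2.01 TPM with all 3 cytokines. All untreated libraries lay above all stimulated ones, and the limma change with IL-33 was -1.21 ± 0.19 (SE), adjusted p = 0.000833. These are few reads, 34 in all over the untreated libraries (exact 95% Poisson interval 23.5 to 47.5, counting error only), 14 with IL-33 (7.65 to 23.5) and 6 with all 3 cytokines (2.20 to 13.1). Its abundant partner Cox6a1 changed by 0.05 ± 0.03 (SE), adjusted p = 0.322 in limma. The 6 striated muscle markers listed summed to at most 1.31 TPM in any library and were highest in an untreated one, and their part in the Cox6a2 values was not tested.

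Adding IL-17A to IL-33 left the mitochondrial genes split within the group. In limma 4 of 13 had an unadjusted p under 0.05, where 3568 of the 13887 genes tested did. Of the 13, 0 were called by limma on TPM and 0 on estimated reads. Their median log2 change was -0.34, against -0.05 over all genes. Of the nuclear members 3 rose and 0 fell, where 9.76% of all genes were called, 3.54% higher and 6.22% lower (491 and 864 genes, or 684 and 646 after scaling by median ratios). After that scaling 9 nuclear members rose, and on estimated reads 16 did, where 6.44% of all genes rose. Ndufa3, a complex I accessory subunit, stood at 73.1, 74.6 and 69.1 TPM with IL-33 and 87.9, 129 and 136 TPM with IL-33 plus IL-17A. Its 2 high values are the 2 libraries with a low mitochondrial share, and the limma change was 0.67 ± 0.18 (SE), adjusted p = 0.0355.

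Ndufa12, another accessory subunit, changed by 0.42 ± 0.11 (SE), adjusted p = 0.0317 in limma, and Cox5a, a structural subunit of complex IV, by 0.22 ± 0.05 (SE), adjusted p = 0.0122. Ndufa12 averaged 10.9 TPM while a processed pseudogene that matches part of its transcript, Gm15920, averaged 163 TPM, so the value of Ndufa12 is uncertain. None of the 3 was called without the 6 libraries, where replicate 1 is the only IL-33 plus IL-17A library left. Without that replicate 1, 26 nuclear and 6 mitochondrial members were called, where 22% of all genes were. That fit sets only libraries from the 6 against IL-33 libraries that all lie outside them. There the addition of IL-17A and whatever sets the 6 libraries apart cannot be told apart. The nuclear count was 0 without replicate 3 of IL-33 plus IL-17A, and 1 without its replicate 2 or without IL-33 replicate 1 or 3.

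Adding IL-13 to IL-33 gave the most calls among the members, and it is the comparison in which the 6 libraries coincide with a whole group. Of the mitochondrial genes 7 of 13 fell and 0 rose, where 22.4% of all genes tested fell and 10% rose. Their median log2 change was -0.53, against -0.08 over all genes. With another scaling, by median ratios, all genes split into 2243 higher and 2102 lower in place of 1395 and 3111.

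In complex I mt-Nd6 (limma log2 change -0.73), mt-Nd2 (-0.68), mt-Nd5 (-0.68), mt-Nd4 (-0.56) and mt-Nd1 (-0.43) fell, and no IL-33 plus IL-13 library overlapped the IL-33 libraries in any of them. The limma change of mt-Nd1 was -0.43 ± 0.10 (SE), adjusted p = 0.00712. mt-Co1 changed by -0.44 ± 0.11 (SE), adjusted p = 0.00876, and mt-Cytb by -0.37 ± 0.11 (SE), adjusted p = 0.0231. mt-Cytb and mt-Nd6 were not called after median-ratio scaling, at -0.28 and -0.64. On estimated reads these 2 were not called either. There mt-Nd1, mt-Nd2, mt-Nd4, mt-Nd5 and mt-Co1 were called lower, where 17% of all genes were. Without IL-33 replicate 3 the count of mitochondrial calls was 3 of 13, and without IL-33 plus IL-13 replicate 2 it was 2 of 13. In each of those fits 22.2% of all genes were called, so neither count stood clearly above that share. None of the 5 genes with near-identical nuclear copies was called by limma. Of the 5, 1 had an unadjusted p under 0.05, where 6047 of the 13887 genes tested did.

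The nuclear members went the other way: 27 of 91 rose and 1 fell, where 10% and 22.4% of all genes did, with a median log2 change of 0.10. After median-ratio scaling 45 rose, where 16.2% of all genes did, and on estimated reads 48 rose, where 17.1% did; 1 fell in each. In complex I 12 of 37 subunits rose, 11 of the 30 accessory subunits and 1 of the 7 core subunits. In complex II it was 1 of 4, in complex III 4 of 8, in complex V 6 of 17, and in complex IV 4 rose and 1 fell of 17. None of the 7 tested assembly factors of complex I was called by limma. Of the 7, 0 had an unadjusted p under 0.05, where 6047 of the 13887 genes tested did. Leaving out 1 library lowered the nuclear count to 12 (IL-33 plus IL-13 replicate 1), 13 (its replicate 2) and 18 (IL-33 replicate 2 or 3). In those fits 23%, 22.2%, 24.8% and 22.2% of all genes were called, against 32.4% over all libraries.

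Of complex I, Ndufv1, the flavoprotein subunit that binds NADH, stood at 113, 105 and 108 TPM with IL-33 and 150.1, 141 and 135 TPM with IL-33 plus IL-13, a limma change of 0.38 ± 0.08 (SE), adjusted p = 0.00574. The accessory subunits Ndufa3, Ndufa1 and Ndufa2 rose by 0.62, 0.58 and 0.57 on the log2 scale. The core subunits Ndufs1 and Ndufs3 were not called, with log2 changes of 0.07 and 0.18, but both were called on estimated reads, at 0.16 and 0.27.

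Complex II is wholly nuclear. Its membrane anchor Sdhd stood at 104, 98.4 and 93.1 TPM in the untreated libraries, 111, 109 and 103 TPM with IL-33, 99.1, 148 and 161 TPM with IL-33 plus IL-17A, 162, 155 and 154 TPM with IL-33 plus IL-13 and 146, 127 and 120.02 TPM with all 3 cytokines. The 6 libraries again held the highest values, 146 TPM and above, and the limma change with IL-13 was 0.53 ± 0.14 (SE), adjusted p = 0.0122. The catalytic subunits Sdha and Sdhb and the other anchor Sdhc were not called, with limma log2 changes of 0.11, 0.09 and -0.05. On estimated reads Sdha and Sdhb were called, at 0.19 and 0.17.

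In complex III, Uqcr11, a small membrane subunit, stood at 64.8, 63.0 and 63.2 TPM in the untreated libraries, 72.7, 76.1 and 75.4 TPM with IL-33, 69.8, 121 and 142 TPM with IL-33 plus IL-17A, 117, 138 and 116 TPM with IL-33 plus IL-13 and 112, 72.9 and 73.1 TPM with all 3 cytokines. The 6 libraries held 112 TPM or more and the other 9 no more than 76.1 TPM, and the limma change with IL-13 was 0.72 ± 0.22 (SE), adjusted p = 0.0277. Uqcrfs1, the Rieske iron-sulfur protein, stood at 149, 147 and 139 TPM in the untreated libraries, 158, 159 and 144 TPM with IL-33, 139.9, 194 and 193 TPM with IL-33 plus IL-17A, 215, 208 and 202 TPM with IL-33 plus IL-13 and 205, 178 and 184 TPM with all 3 cytokines, a change of 0.44 ± 0.10 (SE), adjusted p = 0.00805. Its values in the triple group lay above every IL-33 library, in the 2 libraries outside the 6 as well. Uqcrh and Uqcrq rose too, by 0.37 and 0.21.

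Cox5a gave the smallest adjusted p among the nuclear members. It stood at 77.0, 73.2 and 76.6 TPM in the untreated libraries, 78.7, 76.9 and 77.1 TPM with IL-33, 83.6, 91.1 and 97.2 TPM with IL-33 plus IL-17A, 97.6, 98.4 and 94.1 TPM with IL-33 plus IL-13 and 100.3, 96.7 and 94.8 TPM with all 3 cytokines. Every library given IL-13, with or without IL-17A, exceeded every IL-33 library, whatever its mitochondrial share, and the limma change with IL-13 was 0.31 ± 0.05 (SE), adjusted p = 0.000555. Cox6b1, Cox7a2 and Ndufa4, also complex IV subunits, rose by 0.42, 0.26 and 0.14. Cox4i2, which had risen with IL-33, fell with IL-13 to 3.88, 4.08 and 3.82 TPM, a change of -0.47 ± 0.09 (SE), adjusted p = 0.00252; the IL-33 libraries enter both comparisons.

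In complex V the rotor gene Atp5g3, one of those encoding subunit c, stood at 402, 381 and 313 TPM in the untreated libraries, 422, 399 and 333 TPM with IL-33, 323, 577 and 606 TPM with IL-33 plus IL-17A, 636, 622 and 616 TPM with IL-33 plus IL-13 and 601, 496 and 441 TPM with all 3 cytokines. Its change with IL-13 was 0.71 ± 0.20 (SE), adjusted p = 0.0212 in limma. Atp5e and Atp5d, subunits of the central stalk, rose by 0.64 and 0.46. Atp5a1, the alpha subunit, rose by 0.19, and the catalytic beta subunit Atp5b was not called, with a change of 0.07, but was called on estimated reads, at 0.15.

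Atp5k, subunit e at the dimer interface, had the widest split of the nuclear members. It stood at 114, 113 and 82.9 TPM in the untreated libraries, 139, 101 and 73.8 TPM with IL-33, 76.7, 252 and 289.7 TPM with IL-33 plus IL-17A, 227, 241 and 254 TPM with IL-33 plus IL-13 and 270.4, 122 and 85.2 TPM with all 3 cytokines. The 6 libraries held 227 to 289.7 TPM and the other 9 held 73.8 to 139 TPM, yet the limma change with IL-13, 1.24 ± 0.48 (SE), adjusted p = 0.0689, did not pass, and values within the mixed groups were far apart.

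**Figure D4:**
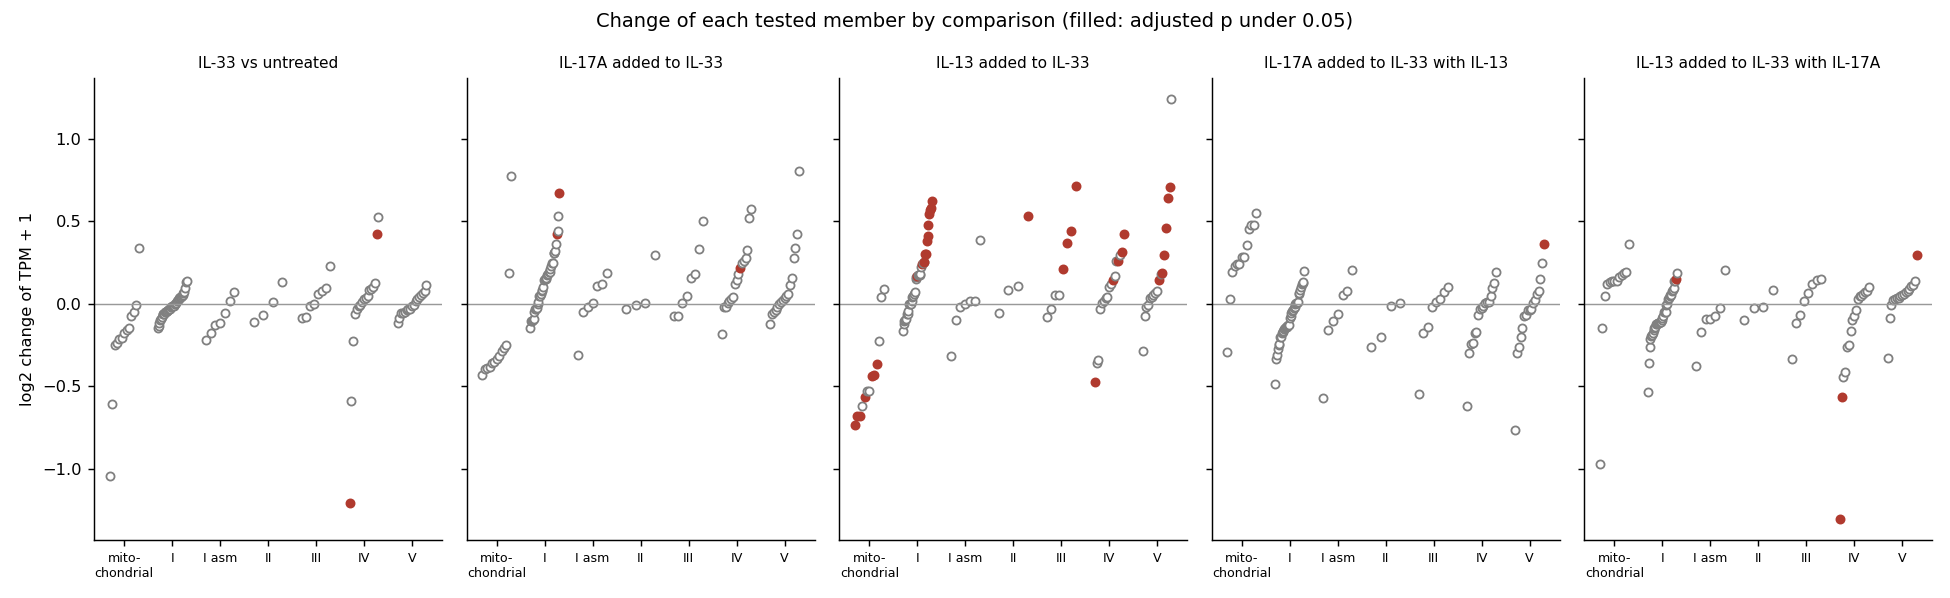
Change in log2(TPM + 1) of each tested member in 5 comparisons, by genome and complex (I asm, assembly factors of complex I); each point is a gene, ordered by change, and filled points are called by limma at an adjusted p under 0.05. Filled points are densest with IL-13 added to IL-33, 7 below 0 among mitochondrial genes and 27 above 0 among nuclear ones; Cox5b-ps is not drawn.

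How far these calls rest on the 6 libraries can be measured only in part. With a term for them in the limma fit, 1 nuclear member was still called with IL-13 added to IL-33, Cox5a, at 0.20 ± 0.05 (SE), adjusted p = 0.0328. The share of all genes called went from 32.4% to 10.2% with the term, 4.75% higher and 5.48% lower. In that fit Uqcr11 and Atp5e, both raised without the term, came to -0.04 and -0.01. The term leaves the estimate to groups that hold libraries of both kinds. By count, 24 of the 92 nuclear members were higher in all 6 libraries than in all other 9, and 1, Ndufa10, was lower, against 2.89% and 8.47% of all genes tested. The 24 include Ndufaf2, which was below the filter and is not among the genes tested.

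Some other gene groups moved with the same 6 libraries, and others overlapped. Cytosolic ribosomal protein genes took 8.34% to 8.64% of TPM in them and 7.75% to 8.19% in the other 9, and the 2 mitochondrial rRNAs took 0.184% to 0.237% and 0.245% to 0.303%. Mitochondrial ribosomal proteins overlapped, at 0.492% to 0.541% in the 6 and 0.464% to 0.502% in the other 9. Macrophage markers (1.89% to 2.09% and 1.83% to 2.08%) and fibroblast markers (1.09% to 1.38% and 1.04% to 1.70%) overlapped as well. What the 6 libraries share was not tested beyond these values.

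The promoters of 3 of these genes are shown for what they share and lack, as RefSeq gives them for GRCm38.p6, around the start of transcription. Capitals mark matches, on either strand, to an NRF1 site (GCGCATGCG), the ETS core (CCGGAAG), the ERR half-site (TCAAGGTCA) or a YY1 site (AAGATGGCG). Atp5k (chr5:108434350-108434649, minus strand) split most by library, Sdhd (chr9:50603800-50604099, minus strand) followed the same split, and Cox5a (chr9:57520982-57521281, plus strand) rose in every library given IL-13.
Atp5k: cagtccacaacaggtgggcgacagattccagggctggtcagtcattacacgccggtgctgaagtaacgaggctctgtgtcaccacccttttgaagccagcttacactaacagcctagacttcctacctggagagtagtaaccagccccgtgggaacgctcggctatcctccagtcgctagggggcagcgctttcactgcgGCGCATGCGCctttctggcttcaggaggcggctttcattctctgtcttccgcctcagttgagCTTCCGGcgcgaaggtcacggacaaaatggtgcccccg
Sdhd: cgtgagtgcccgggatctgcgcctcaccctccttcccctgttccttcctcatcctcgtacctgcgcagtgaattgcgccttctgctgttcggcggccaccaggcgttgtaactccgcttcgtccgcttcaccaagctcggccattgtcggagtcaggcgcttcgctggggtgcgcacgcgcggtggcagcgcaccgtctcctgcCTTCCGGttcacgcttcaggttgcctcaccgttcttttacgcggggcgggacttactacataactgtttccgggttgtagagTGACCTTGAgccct
Cox5a: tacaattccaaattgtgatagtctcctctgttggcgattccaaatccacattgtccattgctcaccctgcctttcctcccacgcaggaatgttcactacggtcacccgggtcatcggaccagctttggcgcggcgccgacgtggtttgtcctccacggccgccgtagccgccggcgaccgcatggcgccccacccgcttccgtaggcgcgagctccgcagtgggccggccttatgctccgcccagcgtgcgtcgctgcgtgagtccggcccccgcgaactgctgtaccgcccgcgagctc

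Atp5k holds the NRF1 and ETS letters, Sdhd the ETS and ERR letters, and Cox5a none of them in this window. Promoters were found for 75 of the 92 nuclear members. The NRF1 letters lie in 10 (13.3%), against 1.95% of 27025 gene promoters of the same length, and the ETS core in 19 (25.3%), against 9.93%. The ERR half-site lies in 2 (2.67%, Sdhd and Atp5g3) against 0.466%, and the YY1 letters in 8 (10.7%) against 1.64%. The motifs were counted separately, so matches may overlap, and a match describes letters only.

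When IL-17A was added to IL-33 plus IL-13, 6 of 13 mitochondrial genes had an unadjusted p under 0.05 in limma. So did 3262 of the 13887 genes tested. Of the 13, 0 were called by limma on TPM and 0 on estimated reads. The median log2 change was 0.28, against 0.01 over all genes. All IL-33 plus IL-13 libraries are among the 6 libraries of low mitochondrial share, and of the triple libraries only replicate 1 is. The addition of IL-17A and whatever sets those libraries apart therefore cannot be fully told apart here. Of the nuclear members 1 rose and 0 fell, where 7.45% of all genes were called, 3.4% higher and 4.05% lower. On estimated reads Atp5mpl and Ndufs4 rose and Ndufaf8, Ndufv1 and Sdha fell. The gene called by limma on TPM, Atp5mpl, a small membrane proteolipid of ATP synthase, stood at 86.8, 87.6 and 91.8 TPM in the untreated libraries, 80.2, 81.3 and 83.9 TPM with IL-33, 93.6, 72.6 and 89.1 TPM with IL-33 plus IL-17A, 78.3, 79.9 and 83.6 TPM with IL-33 plus IL-13 and 94.97, 107 and 111 TPM with all 3 cytokines. The triple group held the highest values of all 15, in libraries of both kinds, and the limma change was 0.36 ± 0.08 (SE), adjusted p = 0.0183. Without triple replicate 1, 4 mitochondrial and 13 nuclear members were called, and so were 14.1% of all genes, a share close to that of the nuclear members. That fit sets only libraries of low mitochondrial share against only libraries outside them. The nuclear count was 0 without triple replicate 2 or 3, or without IL-33 plus IL-13 replicate 1 or 2.

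When IL-13 was added to IL-33 plus IL-17A, 0 mitochondrial genes were called by limma and 0 on estimated reads. Of these genes 0 had an unadjusted p under 0.05, where 3848 of the 13887 genes tested did. Both groups hold libraries of both kinds. The median log2 change was 0.14, against -0.02 over all genes. Of the nuclear members 2 rose and 2 fell, where 15.8% of all genes were called, 6.7% higher and 9.14% lower. Atp5mpl rose by 0.29, and Ndufab1, the acyl carrier protein of complex I, changed by 0.15 ± 0.05 (SE), adjusted p = 0.044. Without IL-33 plus IL-17A replicate 1, 12 nuclear and 2 mitochondrial members were called, where 17.6% of all genes were, and without triple replicate 1, 11 nuclear members, where 18.3% were; the nuclear members' share was not above that of all genes in either. With the term for the 6 libraries Atp5mpl, Cox5a and Uqcrfs1 rose and Cox6a2 and Ndufa3 fell, and Ndufab1 and Ndufa4l2 were no longer called. Without the 6 libraries none of the 4 was called, and Atp5e and Uqcrfs1 were. The nuclear count was 1 without IL-33 plus IL-17A replicate 2, or without triple replicate 2 or 3.

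Both genes that fell belong to complex IV or its family. Cox6a2 fell to 2 reads in each triple library, a limma change of -1.30 ± 0.19 (SE), adjusted p = 0.000568. Ndufa4l2, a relative of the complex IV subunit Ndufa4 known as a target of hypoxia signalling, stood at 279, 234 and 196 TPM in the untreated libraries, 392, 373 and 263 TPM with IL-33, 305, 351 and 347 TPM with IL-33 plus IL-17A, 279, 264 and 258 TPM with IL-33 plus IL-13 and 273, 219 and 192 TPM with all 3 cytokines. Its triple group lay below all libraries of IL-33 plus IL-17A, and the change was -0.56 ± 0.17 (SE), adjusted p = 0.0387. The call was lost after median-ratio scaling (-0.55) and on estimated reads (-0.55). With IL-33 alone its limma change of 0.53 ± 0.17 (SE), adjusted p = 0.0556 did not pass. Ndufa4 itself ranged only from 88.2 to 109 TPM over the 15 libraries.

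A further comparison, of all 3 cytokines against IL-33 alone, was added after the data were seen, because both groups keep libraries once the 6 are left out. Over all libraries 0 of 13 mitochondrial genes were called by limma. Of the 13, 0 had an unadjusted p under 0.05, where 4954 of the 13887 genes tested did. The median log2 change of the 13 was -0.20, against -0.06 over all genes. This comparison was not run on estimated reads. Of the nuclear members 8 rose and 3 fell, where 24.7% of all genes were called, 8.2% higher and 16.5% lower. Without the 6 libraries, 3 IL-33 and 2 triple libraries gave 13 nuclear calls, 10 higher and 3 lower, where 19.8% of all genes were called; 9 of the 13 were shared with the 11.

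Of these, Cox5a and Atp5mpl had the smallest adjusted p without the 6 libraries. Over all libraries Cox6a2 (limma log2 change -0.98, adjusted p = 0.00232) and Atp5l (0.22, adjusted p = 0.00445) came before Atp5mpl. Atp5l averaged 97.9 TPM and a listed pseudogene that matches part of its transcript 22.3 TPM, whose part in the Atp5l values was not tested. Cox5a changed by 0.32 ± 0.05 (SE), adjusted p = 0.000338 over all libraries and by 0.30 ± 0.04 (SE), adjusted p = 0.00159, without the 6. Atp5mpl changed by 0.34 ± 0.08 (SE), adjusted p = 0.0083 and by 0.41 ± 0.04 (SE), adjusted p = 0.000653. Ndufc1, Ndufb1-ps, Uqcrh, Cox7a2, Atp5a1 and Atp5l also rose in both fits, and Cox6a2 fell in both. Cox4i2 and Ndufa4l2 fell in the first only, with log2 changes of -0.32 and -0.72 without the 6, and 4 were called without the 6 only, Atp5e (0.32) and Uqcrfs1 (0.24) higher and the complex I subunits Ndufv3 (-0.22) and Ndufs5 (-0.20) lower.

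Whether IL-13 and IL-17A act differently together than apart was tested by the interaction term. It called 0 of 13 mitochondrial and 0 of 91 nuclear members by limma, where 0.338% of all genes were called. At an unadjusted p under 0.05 were 7 and 41, where 3750 of the 13887 genes tested were. On estimated reads 2 mitochondrial and 23 nuclear members were called, where 10.1% of all genes were. The nearest nuclear members were Ndufa12 at -0.73 ± 0.16 (SE), adjusted p = 0.0639, and Ndufa3 at -1.16 ± 0.25 (SE), adjusted p = 0.0648; mt-Nd1 was at 0.57 ± 0.14 (SE), adjusted p = 0.0783. Without IL-33 plus IL-17A replicate 1, 7 mitochondrial and 35 nuclear members were called, where 21.9% of all genes were, and without triple replicate 1, 7 and 20, where 16.4% were. Those are the libraries whose share departs from the rest of their group. Leaving 1 of them out puts its group wholly inside or wholly outside the 6 libraries. The interaction and that split were not separated in those fits. In the fits over all libraries, on TPM and on estimated reads, the 6 lie unevenly over the groups as well. They include no IL-33 library and every IL-33 plus IL-13 library, so the 2 were not separated there either. With a term for the 6 libraries, limma called 2 of the 13887 genes for the interaction.

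**Figure D5:**
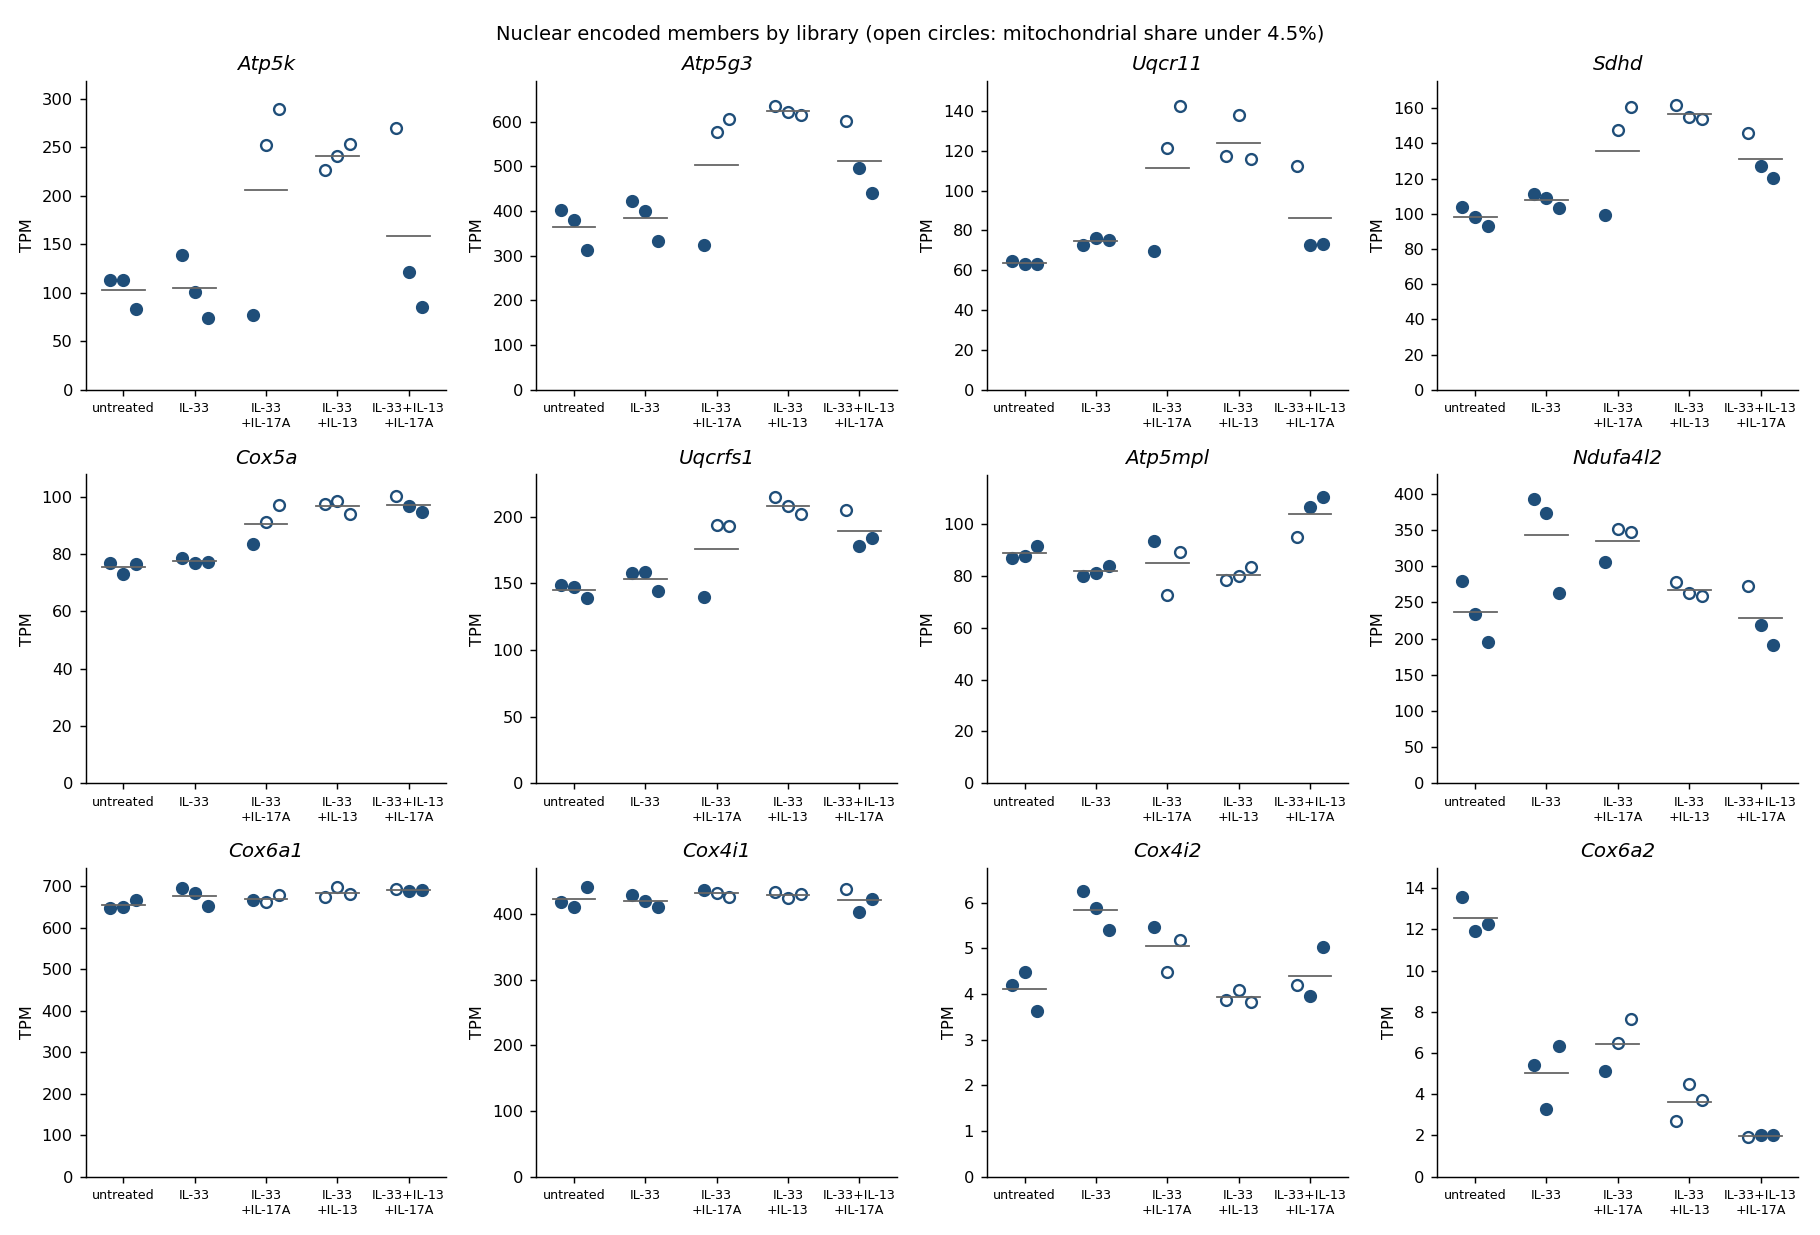
TPM of 12 nuclear encoded members by library, 3 points per group with the group mean as a bar and axes from 0; open circles mark the 6 libraries. Atp5k, Atp5g3, Uqcr11 and Sdhd separate open from filled circles, Cox5a is at 94.1 TPM or more in every library given IL-13, and Cox6a1 and Cox4i1 are flat.

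Beside the structural genes, other genes of mitochondrial function were read from lists chosen with earlier results known. With IL-13 added to IL-33, both mitochondrial rRNAs fell, mt-Rnr2 by 0.47 and mt-Rnr1 by 0.32 on the log2 scale. In the lists of mitochondrial DNA maintenance and transcription (14 genes) and mitochondrial mRNA stability and processing (16 genes), limma called 0. Of these genes 2 and 5 had an unadjusted p under 0.05, where 6047 of the 13887 genes tested did. Of 78 mitochondrial ribosomal proteins 16 rose and 1 fell, and of 82 cytosolic ones 33 rose and 1 fell, with median log2 changes of 0.10 and 0.12, where 10% of all genes rose and 22.4% fell. Of 32 tested assembly factors of complexes II to V 6 rose and 1 fell, among them Cox14 (0.44) and Cox17 (0.39), which serve complex IV.

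Among the carriers around the chain Slc25a5, an ADP/ATP carrier, rose by 0.32 with IL-13 added to IL-33 and by 0.18 with IL-13 added to IL-33 plus IL-17A, and Slc25a3, the phosphate carrier, by 0.28 and 0.15. The uncoupling protein gene Ucp2 fell by 0.15 in the first of these. Of 17 tricarboxylic acid cycle and pyruvate dehydrogenase genes 2 rose, among them Dlat (0.38), a share near the 10% of all genes, and with IL-17A also present 4 rose, among them Dlat (0.21) and Mdh2 (0.18), where 6.7% of all genes did. Coq8b, of coenzyme Q synthesis, rose with IL-33 (0.28) and fell with IL-13 in both settings (-0.34 and -0.36).

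Of 10 tested regulators of mitochondrial biogenesis, 4 fell and 0 rose with IL-13 added to IL-33, where 22.4% and 10% of all genes did, among them Hif1a, the hypoxia factor (-0.52), Nfe2l2 (-0.39) and Nrf1, the factor that binds the NRF1 site (-0.22). In that comparison these lists carry the same 6 libraries on 1 side as the members do. With IL-33 against untreated cells, 1 regulator, Myc, rose (0.33), and limma called 0 of 17 cycle genes. Of the 17, 5 had an unadjusted p under 0.05, where 3665 of the 13887 genes tested did.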

How the data were processed

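Per the labels, RNA of 15 libraries (5 groups of 3) was sequenced on an Illumina NovaSeq. The authors deposited TPM per gene for each library, and per the file headers these rows carry Ensembl gene models with the gene span as length. The submitters' processing notes name HISAT2 and mm10. For the counting tool, its use of strand and its treatment of reads matching several places, the method is not given in the sources used here. Ends of genes in the files lie 1 base past the annotated end and were corrected.

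Genes reaching 1 TPM in 3 or more libraries were tested on log2(TPM + 1) with limma 3.58.1 (trend and robust, R 4.3.3) in one fit over all 15 libraries, with Benjamini-Hochberg adjustment, and called at 0.05. Fold changes on this scale understate those of low genes. Ndufaf2 was below the filter. Estimated reads were recovered from TPM, span and the smallest step of each library: 89.7% to 91.0% of values under 100 reads came out whole within 0.05 of a read. They serve as an alternative with limma's voom. Depths rest on these estimates. Exon lengths, transcripts and copies came from GENCODE vM21, searched with BLAST. The code was tested on simulated data.

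Alternatives were another pseudocount, no filter, median-ratio scaling, the 2 groups of a comparison only, mitochondrial genes removed (nuclear members), a term for the 6 libraries (nuclear members), leaving those out, only those, and leaving out each library. The last but 1 and the comparison of all 3 cytokines with IL-33 were added after seeing the data. The 6 libraries were themselves picked by their values, so the other settings that use them also rest on values seen. Named were all mitochondrial members, up to 3 called nuclear members per complex and direction, fixed isoform pairs and core subunits, and up to 3 called genes per list and direction. Members and lists were chosen with earlier results of these data known. Other genes named with their values, such as Atp5k, Atp5mpl beyond its calls and Ndufa10, were chosen after their values were seen.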

Additional observations from a re-analysis of the deposited data

How the results depend on the processing

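The counts of called members depended strongly on single libraries. Over fits leaving out each library, mitochondrial calls ranged from 0 to 0 with IL-33, 0 to 6 with IL-17A added to IL-33, 2 to 8 with IL-13 added to IL-33, 0 to 4 with IL-17A added to IL-33 plus IL-13, 0 to 2 with IL-13 added to IL-33 plus IL-17A and 0 to 7 for the interaction. Nuclear calls ranged from 2 to 4, 0 to 26, 12 to 21, 0 to 13, 1 to 12 and 0 to 35 in the same order. The shares of all genes called were, in that order, 10.3% to 13.4%, 5.83% to 22% and 22.2% to 28.8%. The remaining shares were 3.54% to 14.1%, 10.5% to 18.3% and 0.151% to 21.9%. With median-ratio scaling 9 nuclear members were called with IL-17A added to IL-33, 46 with IL-13 added to IL-33 and 2 with IL-17A added to IL-33 plus IL-13. On estimated reads these were 16, 49 and 5, and for the interaction 23 nuclear and 2 mitochondrial members were called. Of all genes, median-ratio scaling called 9.58%, 31.3% and 8.46%, and estimated reads 12.8%, 34.1%, 11.9% and, for the interaction, 10.1%. With only the compared groups fitted the nuclear counts were 0 with IL-17A added to IL-33, 2 with IL-17A added to IL-33 plus IL-13 and 1 with IL-13 added to IL-33 plus IL-17A. Of all genes, 3.74%, 4.13% and 5.67% were called there. A pseudocount of 0.1 gave 2 nuclear calls with IL-17A added to IL-33 plus IL-13, where 7.3% of all genes were called. With the term for the 6 libraries, nuclear calls were 4 with IL-33, 0 with IL-17A added to IL-33, 1 with IL-13 added to IL-33, 0 with IL-17A added to IL-33 plus IL-13 and 5 with IL-13 added to IL-33 plus IL-17A. Of all genes, 19.3%, 6.01%, 10.2%, 4.08% and 17.6% were called with the term, in that order. Under that term the log2 changes of Uqcr11 and Atp5e with IL-13 added to IL-33 reversed, to -0.0432 and -0.0091. Without the 6 libraries 1 mitochondrial gene, mt-Co1, was called with IL-33, 0 nuclear members with IL-17A added to IL-33 and 2 with IL-13 added to IL-33 plus IL-17A, neither of them among the 4 called over all libraries. With only the 6, nuclear calls were 0 with IL-17A added to IL-33 plus IL-13 and 1 with IL-13 added to IL-33 plus IL-17A. In fits with 1 library in a group, that library is assumed to vary like the others. The 6 were picked by the sum of the mitochondrial genes, so leaving them out narrows the spread of those genes. The call of mt-Co1 with IL-33 is therefore not read as a result. Leaving out the 6 removes the IL-33 plus IL-13 group, so no value exists for the comparisons that need it. The causes of these differences were not tested, apart from fewer samples where libraries were left out. No paired analysis was possible because the labels give no replicate numbers shared between groups. Low read counts limit mt-Atp8, mt-Nd3, mt-Nd4l, Cox6a2 and Cox5b-ps, each at 25 reads or fewer in every library. The part of nuclear copies in the counts of the mitochondrial genes among them was not tested.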
